A study of Mus musculus with 8 samples.

Results

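Lung macrophage precursors of PPARγ knockout and control mice were compared at day 2 after birth on 4 of the 8 arrays of the series. The rule took the 2 arrays titled preAM KO d2 and the 2 titled preAM WT d2, and the other 4 arrays are of day 11 macrophages. All mice were on the C57BL/6 background and carried loxP-flanked Pparg alleles. The controls (PPARg fl/fl, no recombinase) and the knockouts (CD11cCre/PPARg fl/fl) each gave 2 arrays, and each array held RNA from the sorted cells of 2 pooled mice. The recombinase is driven by the CD11c promoter, so deletion is limited to cells that express CD11c, among them dendritic cells and other lung myeloid cells as well as alveolar macrophages. The lungs were digested with collagenase, and sorted cells were negative for the viability dye eF780, positive for CD45 and F4/80 and high in CD11c, and were taken either as Siglec-F intermediate and CD11b intermediate or as Siglec-F low and CD11b high. The sources used here do not say which of these gates served which genotype, so the deletion and the gate cannot be told apart. In such sorted bulk samples, fewer cells of a type and less RNA per cell cannot be told apart either.

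PPARγ is a nuclear receptor that pairs with RXR, binds fatty acid ligands and switches on genes of lipid uptake, storage and oxidation. In the lung it is induced by GM-CSF around birth, when fetal monocytes turn into alveolar macrophages, the cells that take up and degrade surfactant lipid. Interferons act on the same cells through JAK kinases and STAT and IRF transcription factors, which bind interferon-stimulated response elements in the promoters of antiviral genes.

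Signals are log2 values with a median of 5.35 on every array, and no detection calls came with them, so a signal near or below that median may hold little specific hybridisation. Across 18782 genes the 2 control pools correlated with r = 0.9978 and the 2 knockout pools with r = 0.9942, against 0.9736 to 0.9828 between genotypes. The pools also differed in sex-linked signal. Xist signal was 10.44 and 3.38 in the controls and 10.68 and 9.85 in the knockouts, and the Y-linked gene Eif2s3y was 6.92 and 8.75 in the controls and 4.05 and 8.19 in the knockouts, so knockout pool 1 had the lowest Y-linked signal and control pool 2 the lowest Xist signal. The Pparg probe set, of which the sources used here do not say whether it lies in the deleted part and which therefore checks nothing, read 10.89 and 11.01 in the controls and 10.55 and 10.74 in the knockouts. The difference of -0.31 ± 0.08 (standard error, SE, n = 2 arrays per group) had a limma adjusted p of 0.0346, a call that was lost without either control pool, knockout pool 1, either day 11 control pool or either day 11 knockout pool (adjusted p 0.052 to 0.191) and in 2 other alternatives (adjusted p 0.0944 to 0.105). Of the genes of the gate proteins, Itgam (CD11b) was 7.87 and 7.79 in the controls and 10.98 and 10.78 in the knockouts, and Siglecf was 9.85 and 9.90 in the controls and 7.13 and 7.46 in the knockouts, with no overlap in either. Both were called (3.05 and -2.58), and a gene used to choose cells is no finding between them. Of the other gate genes, Adgre1 (F4/80) and Itgax (CD11c) were higher by 0.53 and 0.30, the latter lost without either control pool or knockout pool 2 (adjusted p 0.0515 to 0.0726), and Ptprc (CD45) was not called (-0.01).

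The comparison asked how cells that should become alveolar macrophages differ 2 days after birth when Pparg is deleted. Differences are knockout minus control on the log2 scale, and a gene was called at a limma adjusted p under 0.05 (Benjamini-Hochberg over the 18782 genes). Under this rule 3774 genes were called (20.1% of those tested), of which 1665 were higher in the knockouts (8.86% of those tested) and 2109 lower (11.2%). Counts of called list members below are to be read beside these shares. The large differences were mostly upward. Of the called genes, 160 were at least 4-fold higher and 33 at least 4-fold lower, and 12 and 4 respectively differed by at least 16-fold. Without control pool 1 the calls came to 2428, and without control pool 2 to 2223. Under the main fit and all 15 alternative fits, 1891 genes were called (10.1%), 969 higher and 922 lower. Where a difference below carries an SE, the gene is one of these 1891, unless a lost call is reported with it.

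The 15 largest falls and 15 largest rises among those 1891 genes separate the genotypes on every array, which the rule that chose them required. Tc2n, which encodes a C2 domain protein, was 9.23 and 9.35 in the controls and 3.93 and 5.36 in the knockouts. Vstm2a was 9.37 and 9.56 in the controls and 5.74 and 6.54 in the knockouts. Slco2b1, an organic anion transporter, was 9.71 and 9.61 in the controls and 6.29 and 6.89 in the knockouts. In each of these 3 genes both knockout pools lay far below the controls, and knockout pool 1 was the lower of the pair. The same order of the knockout pools held for 14 of the 15 largest falls, and for 29 of all 33 genes at least 4-fold lower. The exception among the 15 was Acaa1b, a peroxisomal thiolase, at 7.87 and 7.87 in the controls and 4.89 and 4.25 in the knockouts. Genes of fatty acid, wax and droplet handling in this group were the fatty acid carrier Fabp4 (7.53-fold lower), the droplet protein Cidec (16.3-fold) and the wax alcohol acyltransferase Awat1 (6.79-fold). Others were the scavenger receptor gene Marco (-3.52 ± 0.16), the chemokine receptor gene Cxcr1 (-2.82 ± 0.16), the Akt inhibitor gene Phlda3 (-2.77 ± 0.19), the coronin gene Coro6 (-2.77 ± 0.21) and Fam189a2 (-2.57 ± 0.13). The control signals of the 15 falls ran from 7.67 to 10.8, so all stood above the array median.

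The 15 largest rises started lower, with control signals from 4.61 to 7.65. The complement genes C1qc and C1qb led them (4.85 ± 0.13 and 4.64 ± 0.12), and with C1qa (4.20 ± 0.21) they also count among the interstitial macrophage markers given further on. The others included C3ar1, a complement receptor (4.35 ± 0.14), and the class II gene H2-Ab1 (4.01 ± 0.35). Mmp8, a collagenase, was 6.22 and 6.26 in the controls and 10.50 and 10.79 in the knockouts. Plbd1, a phospholipase B-like protein, was 5.88 and 6.04 in the controls and 10.53 and 10.15 in the knockouts. Kcnn4, a calcium-activated potassium channel, was 5.92 and 5.90 in the controls and 9.95 and 9.54 in the knockouts. The knockout pools were close to each other in all 3, and far above both controls. Rasgrp1, an activator of Ras downstream of diacylglycerol, rose by 4.07 ± 0.29 (adjusted p = 6.48e-05), Cmklr1, the chemerin receptor, by 4.02 ± 0.58 (adjusted p = 0.00196), and Il1r2, a decoy receptor for interleukin 1, by 3.81 ± 0.09 (adjusted p = 1.33e-06). Ifi209, an interferon-inducible gene of the Pyhin family, was 5.14 and 4.63 in the controls and 9.51 and 7.89 in the knockouts, so its pools stood further apart than those of the other rises.

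**Figure D1:**
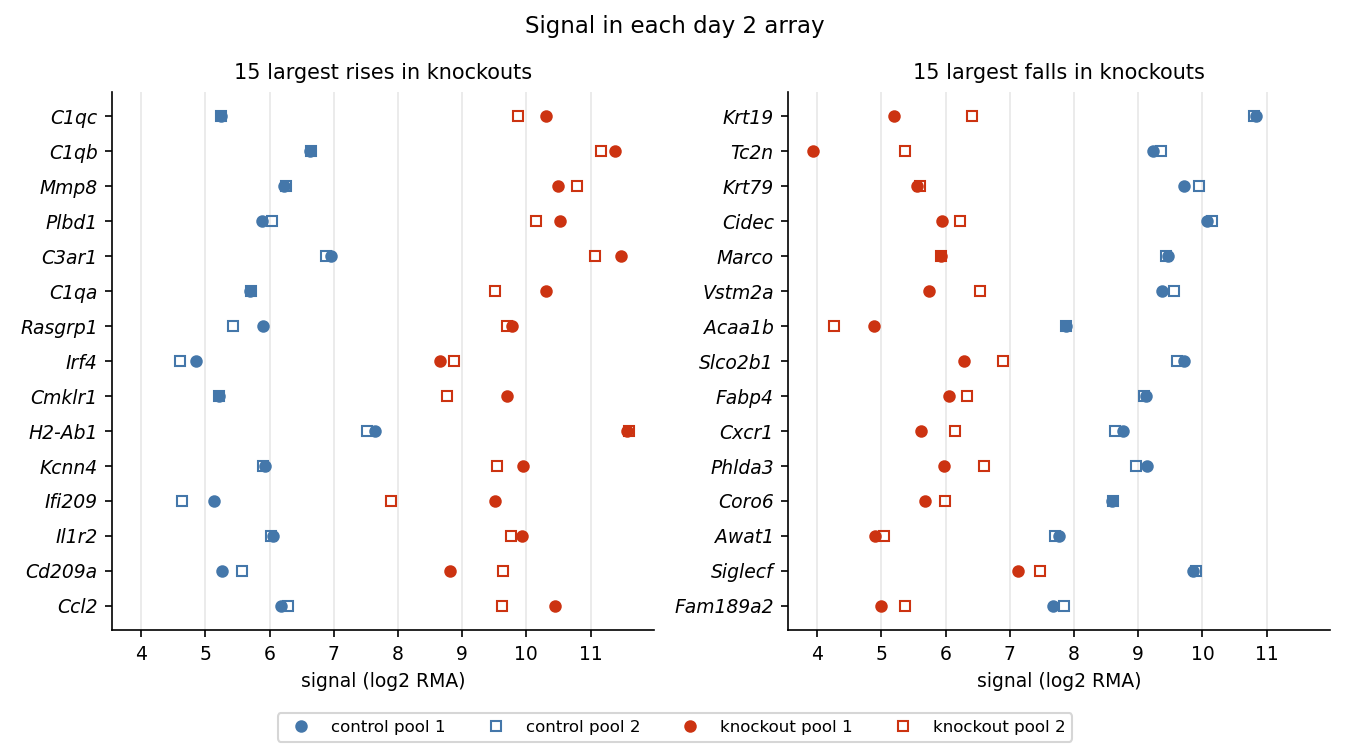
Signal (log2 RMA, horizontal axis) of the 15 genes with the largest rises (left) and falls (right) among those called in every alternative fit, 1 point per array. Blue marks the control pools and red the knockout pools, filled circles pool 1 and open squares pool 2. Control signals lie between 4.61 and 7.65 for the rises and between 7.67 and 10.8 for the falls, and no knockout point overlaps them within a gene.

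The 2 knockout pools parted over the interferon system, and its genes are therefore given pool by pool. Knockout pool 1 exceeded knockout pool 2 by at least 2-fold in 135 genes and fell below it by as much in 7, while the corresponding numbers for the control pools were 14 and 5. Of the 135 genes, 49 belong to the lists of interferon and class I presentation genes, which is 36.3% of the 135 and 39.8% of the 123 genes on those lists. Of all genes tested, 0.72% were at least 2-fold higher in knockout pool 1 than in knockout pool 2. Over the 107 genes of the 8 interferon lists, the median of pool 1 minus pool 2 was 0.81 in the knockouts and 0.11 in the controls. Over all genes tested this median was -0.015 in the knockouts and -0.002 in the controls. Members of these families share sequence (Ifit, Oas, Gbp, Slfn and Ifi20x genes), so their probe sets may read each other's transcripts.

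The promoters of 3 antiviral effector genes with a wide gap between the pools are shown for the letters of the element that interferon-activated factors bind. The 250 bases before the start site of Rsad2, Ifit3 and Ifit1 come from RefSeq (build GRCm38.p6), at chr12:26456453-26456702 (minus strand), chr19:34583279-34583528 (plus strand) and chr19:34640639-34640888 (plus strand). Capitals mark the letters GAAA, any 2 letters, then GAAA, on either strand.
Rsad2: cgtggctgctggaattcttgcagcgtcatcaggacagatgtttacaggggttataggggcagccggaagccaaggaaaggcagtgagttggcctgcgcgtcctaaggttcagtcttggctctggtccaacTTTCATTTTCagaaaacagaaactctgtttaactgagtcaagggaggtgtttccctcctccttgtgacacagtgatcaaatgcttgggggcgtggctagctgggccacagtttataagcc
Ifit3: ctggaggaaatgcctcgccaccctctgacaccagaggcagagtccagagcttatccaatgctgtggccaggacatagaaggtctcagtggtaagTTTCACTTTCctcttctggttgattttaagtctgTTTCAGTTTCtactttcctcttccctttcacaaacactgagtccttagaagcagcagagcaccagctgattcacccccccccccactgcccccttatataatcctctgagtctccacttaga
Ifit1: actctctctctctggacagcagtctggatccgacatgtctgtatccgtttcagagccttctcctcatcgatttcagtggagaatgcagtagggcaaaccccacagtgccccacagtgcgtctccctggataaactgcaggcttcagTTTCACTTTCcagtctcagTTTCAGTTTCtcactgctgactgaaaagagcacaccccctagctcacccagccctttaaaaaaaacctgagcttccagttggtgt
This element was found in 22 of the 53 genes of the interferon factor, effector, feedback, GTPase and chemokine lists that have an entry in the promoter table (41.5%), against 504 of 14724 genes tested (3.42%). Among the members that were at least 2-fold higher in knockout pool 1 than in pool 2 it was found in 18 of 34 (52.9%), and among the other members in 4 of 19 (21.1%). Other effectors with a wide gap between the knockout pools, such as Ifit2 (3.94) and Cmpk2 (3.37), had no match in this window. A match is a run of letters and not a measured binding site.

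Of 13 interferon genes measured, the ligands of the system, 12 were not called. All but Ifna14 and Ifnl2 had signals below the array median of 5.35, where a difference might not show. Ifna1, Ifna2, Ifna5 and Ifnl3 were not tested. Ifnb1, an early type I interferon, was 3.46 and 3.53 in the controls and 3.62 and 3.50 in the knockouts, and Ifng was 4.17 and 4.25 in the controls and 4.38 and 4.37 in the knockouts, with no pool standing out. The widest gaps between the knockout pools in this list were those of Ifnl2 at 7.37 and 7.48 in the controls and 7.26 and 6.85 in the knockouts, Ifna16 (0.36), Ifnk (0.21) and Ifna14 (0.20). The 1 call was Ifnab at 4.81 and 4.84 in the controls and 4.56 and 4.60 in the knockouts (-0.25, adjusted p = 0.0358), and it was lost without either control pool, either knockout pool or either day 11 knockout pool (adjusted p 0.0514 to 0.155) and in 2 other alternatives (adjusted p 0.0633 to 0.0863). Of 9 receptor and kinase genes, 6 were higher and none lower, and 5 of the 6 kept the call in every alternative. Ifnar1, a chain of the type I receptor, was 8.72 and 8.84 in the controls and 9.98 and 9.68 in the knockouts and rose by 1.05 ± 0.11 (adjusted p = 0.000359). The kinase gene Jak2 rose by 0.95 ± 0.11, the type II receptor gene Ifngr1 by 0.71 ± 0.09 and Il10rb, a chain shared by the receptors for interleukin 10 and interferon λ, by 0.65 ± 0.07. The other chain of the interferon λ receptor, Ifnlr1, was 4.69 and 4.55 in the controls and 4.75 and 4.56 in the knockouts and not called. Both knockout pools lay above both controls in the 4 genes that rose. The median over the receptor list was 0.46 above the control mean in pool 1 and 0.36 in pool 2.

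Among 15 nucleic acid sensor and adaptor genes, 3 were higher and 2 lower, beside 8.86% and 11.2% of all genes tested. The number higher was 1 without control pool 2 and 8 without knockout pool 2, and the number lower was 1 without either control pool. Tlr9, the endosomal receptor for unmethylated DNA, was 6.59 and 6.32 in the controls and 9.36 and 8.85 in the knockouts and rose by 2.65 ± 0.16 (adjusted p = 3.21e-05), high in both knockout pools. Mavs, the adaptor of the RNA sensors, was 9.99 and 9.99 in the controls and 8.99 and 9.25 in the knockouts and fell by 0.87 ± 0.09 (adjusted p = 0.000329). The inducible sensors behaved differently. Zbp1 was 7.22 and 6.65 in the controls and 9.56 and 7.11 in the knockouts, Ifih1 was 7.71 and 7.79 in the controls and 8.96 and 7.98 in the knockouts and Dhx58 was 7.45 and 7.40 in the controls and 8.67 and 7.55 in the knockouts, so in all 3 only knockout pool 1 stood more than 1 log2 unit above the control mean, and none was called. Ddx58 (RIG-I), the sensor of viral RNA, was 8.62 and 8.50 in the controls and 9.40 and 8.51 in the knockouts and was not called either. The transcription factors split the same way. Irf7, which amplifies interferon output, was 5.99 and 5.76 in the controls and 9.91 and 6.58 in the knockouts and was not called (adjusted p = 0.0962), while Irf5, a factor downstream of Toll-like receptors, was 8.98 and 8.94 in the controls and 10.04 and 10.05 in the knockouts and rose by 1.08 ± 0.08 with the 2 knockout pools alike. Irf5 was the only called gene of 8 factors, and Irf1, Irf9 and Stat2 differed from the controls by 1.09, 1.16 and 1.28 in pool 1 and by 0.17, 0.15 and -0.02 in pool 2. Batf2 was 5.23 and 4.82 in the controls and 6.60 and 5.21 in the knockouts and was not called.

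The 38 antiviral effectors stood a median of 2.37 above the control mean in knockout pool 1 and 0.47 in pool 2. Rsad2 (viperin) was 4.71 and 4.15 in the controls and 10.20 and 4.98 in the knockouts. Ifit3, which binds foreign RNA together with Ifit1, was 4.93 and 4.55 in the controls and 10.32 and 5.44 in the knockouts. Ifit1 was 4.90 and 4.54 in the controls and 9.31 and 5.29 in the knockouts, and its relative Ifit2 was 4.12 and 3.78 in the controls and 7.85 and 3.91 in the knockouts. In each of these only knockout pool 1 was high, and pool 2 lay within 1 log2 unit of the controls. All 38 effectors were above both controls in pool 1 and 33 were in pool 2. In 26 of the 38 pool 1 exceeded pool 2 by at least 2-fold, against 0.72% of all genes tested. Of the 38 effectors 13 were called higher (34.2%, against 8.86% of all genes tested) and none lower. The number was 3 without either control pool, 8 without either day 11 control pool, 6 with Xist signal as a covariate, 13 without knockout pool 1 and 36 without knockout pool 2, a fit in which the lone pool is assumed to vary like the other groups. Trim30d rose by 1.48 ± 0.27 and Ly6e by 0.55 ± 0.08, and these were the 2 that kept their call in every alternative. Ifi205, a Pyhin family gene, was 5.39 and 4.54 in the controls and 11.18 and 8.42 in the knockouts, high in both knockout pools though 2.76 apart between them. Its difference of 4.84 (adjusted p = 0.00461) was lost when the prior followed a trend and was robust (adjusted p = 0.0545). Ms4a4c, a membrane protein gene, was 3.69 and 3.72 in the controls and 9.64 and 6.27 in the knockouts, again above both controls in both pools, and its call (4.25, adjusted p = 0.011) was lost without either control pool (adjusted p 0.0642 to 0.0674) and in 2 other alternatives (adjusted p 0.0518 to 0.0868).

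Feedback genes followed the effectors. Usp18, the protease that removes ISG15 and blocks the type I receptor, was 5.48 and 4.85 in the controls and 10.07 and 5.66 in the knockouts, and Isg15 was 4.45 and 4.20 in the controls and 6.59 and 4.77 in the knockouts. Herc6, an ISG15 ligase, was 7.18 and 7.34 in the controls and 8.56 and 7.10 in the knockouts and Ube2l6, the conjugating enzyme of ISG15, was 8.08 and 7.80 in the controls and 9.10 and 8.04 in the knockouts. None of the 4 was called (adjusted p = 0.149, 0.0865, 0.362 and 0.18). Of the 7 genes of this list 2 were called, Trim25, a ubiquitin ligase of the RNA sensing pathway, lower (-0.40 ± 0.06) and Socs1, an inhibitor of JAK kinases, higher (0.50). The Socs1 call was lost without either control pool, knockout pool 1, either day 11 control pool or either day 11 knockout pool (adjusted p 0.062 to 0.238) and in 3 other alternatives (adjusted p 0.0535 to 0.133).

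The interferon-induced GTPases, which attack vacuoles that hold pathogens and respond strongly to interferon γ, differed between the control pools as well. Gbp2 was 10.05 and 7.41 in the controls and 11.07 and 8.24 in the knockouts. Gbp5 was 6.00 and 4.12 in the controls and 7.63 and 4.53 in the knockouts. Irgm1 was 8.01 and 6.91 in the controls and 9.64 and 7.11 in the knockouts. In these genes pool 1 exceeded pool 2 in both genotypes, and control pool 1 was above knockout pool 2. The chemokine gene Cxcl9, also a target of interferon γ, was 8.42 and 4.55 in the controls and 9.49 and 6.07 in the knockouts, with a gap of 3.87 between the controls and 3.42 between the knockouts. Control pool 1 exceeded control pool 2 by at least 2-fold in 4 of 9 GTPase genes (Gbp2, Gbp3, Gbp5 and Irgm1) and in 1 of 38 antiviral effectors (Oasl2). It did so in 0.0745% of all genes tested. Gbp4 was 5.20 and 4.21 in the controls and 8.65 and 5.81 in the knockouts and not called (adjusted p = 0.0564). Of the GTPases, Gbp9 rose by 2.42 ± 0.32 (5.67 and 5.33 in the controls and 8.44 and 7.40 in the knockouts) in both pools. It was 1 of 3 GTPase calls, a number that was 1 without control pool 2, knockout pool 1 or any one of the day 11 pools and 8 without knockout pool 2. Gbp7 and Gbp8 were also called higher (0.86 and 0.97). The Gbp7 call was lost without either control pool, knockout pool 1, either day 11 control pool or either day 11 knockout pool (adjusted p 0.0664 to 0.23) and in 3 other alternatives (adjusted p 0.118 to 0.135). The Gbp8 call was lost without control pool 2, knockout pool 1, either day 11 control pool or either day 11 knockout pool (adjusted p 0.0589 to 0.221) and in 3 other alternatives (adjusted p 0.092 to 0.114). Of 8 interferon-induced chemokine and ligand genes 1 was called, Cxcl10 at 9.44 and 8.95 in the controls and 11.20 and 10.06 in the knockouts (1.44). This call was lost without control pool 2 (adjusted p = 0.127) and in 3 other alternatives (adjusted p 0.0668 to 0.0951). Ccl5 was 6.14 and 6.06 in the controls and 10.28 and 7.44 in the knockouts and Tnfsf10 (TRAIL) was 4.88 and 4.84 in the controls and 6.59 and 4.92 in the knockouts, and neither was called (adjusted p = 0.052 and 0.204).

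All 16 genes of class I presentation were higher in knockout pool 1 than in knockout pool 2, with smaller gaps. Over all genes tested the median of this gap was -0.015. The peptide transporter gene Tap1 was 8.15 and 7.57 in the controls and 9.39 and 7.67 in the knockouts and the immunoproteasome gene Psmb9 was 8.45 and 8.23 in the controls and 9.20 and 7.99 in the knockouts, so pool 1 was above both controls in both genes, while pool 2 lay between the controls in Tap1 and below them in Psmb9. The median over the list was 0.48 above the control mean in pool 1 and -0.14 in pool 2. The 1 member called was H2-M3 (0.70), and its call was lost without either control pool, knockout pool 1 or either day 11 control pool (adjusted p 0.0794 to 0.19) and in 4 other alternatives (adjusted p 0.0513 to 0.0721).

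**Figure D2:**
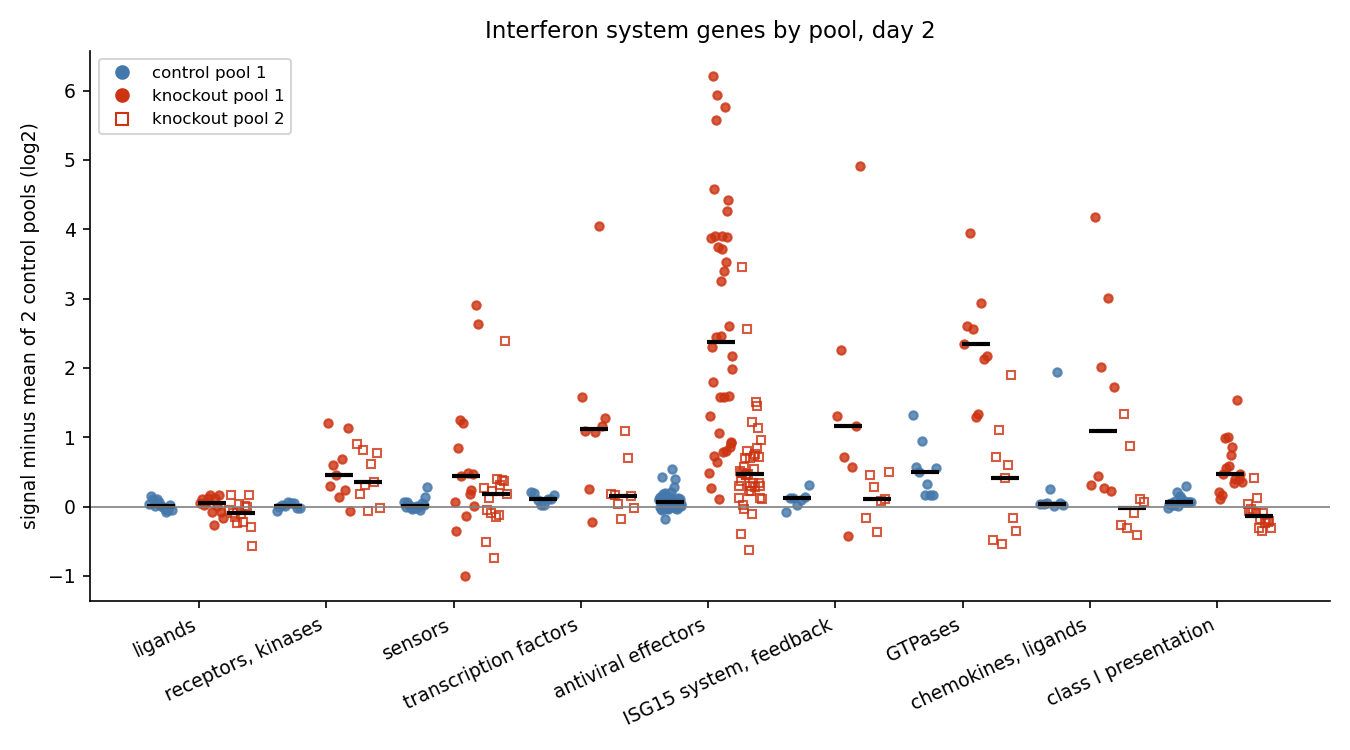
Signal minus the mean of the 2 control pools (log2, vertical axis) for each gene of the interferon system, by role. Blue circles are control pool 1 (control pool 2 is its mirror image about 0), filled red circles knockout pool 1 and open red squares knockout pool 2, and black lines are list medians. The antiviral effectors have medians of 2.37 in knockout pool 1 and 0.47 in pool 2, while ligands, most with signals below the array median, stay near 0.

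**Figure D3:**
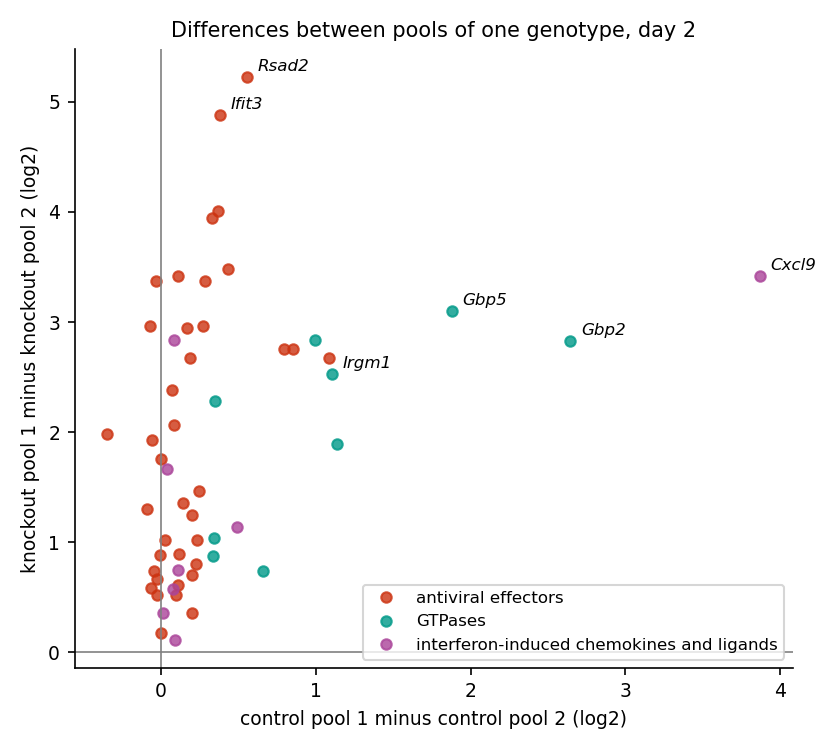
Knockout pool 1 minus knockout pool 2 (log2, vertical axis) against control pool 1 minus control pool 2 (log2, horizontal axis), 1 point per gene of 3 interferon lists. Antiviral effectors such as Rsad2 (5.22 between the knockouts, 0.55 between the controls) lie along the vertical axis, whereas Gbp2 (2.83 and 2.65) and Cxcl9 (3.42 and 3.87) differ between the pools of both genotypes.

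The other 86 genes at least 2-fold higher in knockout pool 1 lay outside these lists, though not all lay outside the interferon system. Ifi209, named above as interferon-inducible, differed by 1.62 between the knockout pools, and Ifit3b, of the Ifit family, by 2.35. The 86 also included effectors of macrophage activation, named here after their values were seen. Nos2, the inducible nitric oxide synthase, was 5.33 and 4.45 in the controls and 9.76 and 4.77 in the knockouts. Acod1, which makes itaconate, was 8.75 and 7.12 in the controls and 11.20 and 7.95 in the knockouts. Saa3, an acute phase protein gene, was 4.63 and 4.84 in the controls and 8.70 and 5.04 in the knockouts. Knockout pool 1 was the highest in all 3, and control pool 1 was above knockout pool 2 in Nos2 and Acod1 but not in Saa3. None of the 3 was called (adjusted p = 0.26, 0.308 and 0.206). The knockout pool with these signals was also the one with the lowest Y-linked signal, and the part of sex in the gap was not tested.

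Lipid storage genes fell beside Cidec. Of 22 genes of droplet coat and triglyceride synthesis, 14 were lower and 1 higher (median difference -0.32, against -0.026 over all genes). Abhd5, the coactivator of triglyceride lipase, was 10.07 and 10.16 in the controls and 9.20 and 9.24 in the knockouts and fell by 0.89 ± 0.07 (adjusted p = 8.81e-05). Dgat1, which completes triglyceride synthesis, was 10.61 and 10.57 in the controls and 9.79 and 9.58 in the knockouts and fell by 0.90 ± 0.13 (adjusted p = 0.00168). The groups did not overlap in either gene. G0s2, an inhibitor of that lipase (-1.07 ± 0.12), Plin1, a droplet coat protein (-1.03 ± 0.15), and Cideb (-1.09 ± 0.18) were lower as well, so genes of storage and of lipolysis were both among those that fell. Plin4, Plin5 and Cidea were not called (-0.16, -0.02 and 0.04), and Agpat2, an acyltransferase of the same route, rose by 0.71 ± 0.12. The number of lower members was 8 without control pool 1 and 9 without control pool 2.

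Peroxisomal genes that fell included those of enzymes and those of the organelle itself. Of 28 measured, 12 were lower and 1, Phyh, was called higher (0.29), with a median of -0.27. The Phyh call was lost without either control pool, knockout pool 1, either day 11 control pool or either day 11 knockout pool (adjusted p 0.0505 to 0.162) and in 3 other alternatives (adjusted p 0.052 to 0.0858). Pex11a, which drives peroxisome division, was 9.57 and 9.63 in the controls and 6.92 and 7.32 in the knockouts and fell by 2.48 ± 0.15 (adjusted p = 3.04e-05). Pex16, needed for the peroxisome membrane, was 10.34 and 10.32 in the controls and 8.94 and 8.88 in the knockouts and fell by 1.42 ± 0.08 (adjusted p = 2.14e-05). In both genes the control pools were nearly equal and both knockout pools lay below them. Of the enzymes, Ehhadh (-1.14 ± 0.14), Hsd17b4 (-0.91 ± 0.07) and Acaa1a (-0.87 ± 0.10) were lower. The import receptors Pex5 and Pex7 were not called (0.10 and -0.14). Of 22 genes of the citrate cycle 8 were lower and none higher (median -0.25), Idh1 by -0.59 ± 0.09, Aco1, which also serves as an iron sensor, by -0.59 ± 0.10 and Suclg2 by -0.55 ± 0.09, and the number was 4 without either control pool and 5 without either knockout pool. A direct repeat of AGGTCA after 1 letter, with at most 2 letters changed, is the form that PPAR and RXR bind. It was found within 250 bases before the start of 1 of the 21 lower lipid droplet and peroxisome genes with a promoter entry (4.76%), against 500 of 14724 genes tested (3.4%).

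A list of alveolar macrophage genes was split, and it also held lipid genes such as Fabp1 and the gate gene Siglecf. Of 27, 15 were lower and 6 higher (median -0.50). Chil3 (Ym1, a chitinase-like protein) was 8.92 and 9.12 in the controls and 6.17 and 7.48 in the knockouts, with knockout pool 1 lowest, and fell by 2.20 ± 0.35. Gal, the neuropeptide galanin, fell by 2.07 ± 0.27, Serpinb1a, an elastase inhibitor, by 1.82 ± 0.17, and Il18 by 1.59 ± 0.12. The 6 that were higher included the chemokine receptor gene Ccr1 (0.87 ± 0.07), the VEGF receptor gene Flt1 (0.98 ± 0.17), Cd200r4 (0.74 ± 0.10) and the cathepsin gene Ctsk (0.52 ± 0.07). Of 14 genes shared with epithelium, Krt19 (32.5-fold), Krt79 and Prom1 (-2.12 ± 0.19) were lower, Krt80 (0.95 ± 0.12) and Cadm1 (0.96 ± 0.11) were higher, and Krt8, Krt18, Epcam and Cdh1 were not called (-0.35, -0.16, 0.09 and 0.12). The remaining called member was Krt7, lower by -0.61, a call lost without control pool 2 (adjusted p = 0.0506).

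Genes of DNA replication and of mitosis were lower almost throughout. Of 63 mitosis genes 61 were lower and none higher (median -0.81), and of 38 DNA replication genes 37 were lower and none higher (median -0.75). The number of lower mitosis genes was between 49 (without control pool 2) and 59 with 1 day 2 array left out, and that of replication genes between 30 (without control pool 2) and 35. The uncalled members were Cenpa, Pttg1 and Pcna (-0.27, -0.04 and -0.22). Ncapg, a condensin subunit, was 8.36 and 8.33 in the controls and 7.19 and 7.08 in the knockouts and fell by 1.20 ± 0.13 (adjusted p = 0.000468). Cdca5 (sororin), which holds sister chromatids together, was 7.73 and 7.97 in the controls and 6.71 and 6.68 in the knockouts and fell by 1.15 ± 0.13 (adjusted p = 0.000547). Kif2c, a kinesin that shortens microtubules at the centromere, was 8.05 and 8.24 in the controls and 7.12 and 6.99 in the knockouts and fell by 1.09 ± 0.14 (adjusted p = 0.00125). The groups did not overlap in these 3 genes. Other steps of the cycle showed falls too, with the kinesin gene Kif23 at -1.28 ± 0.13, the kinetochore gene Spc25 at -1.21 ± 0.19, the origin licensing gene Mcm2 at -0.95 ± 0.11 and the thymidine kinase gene Tk1 at -1.58 ± 0.19. Of the genes of replication forks, Rpa2 fell by 0.98 ± 0.09, Gins1 by 0.98 ± 0.07 and the primase gene Prim1 was 1.99-fold lower. None of 33 ribosomal protein genes was called by limma (median 0.05), and 1 had an unadjusted p under 0.05.

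Many mitotic promoters carry a cell cycle homology region (TTTGAA) together with CCAAT, the letters that NF-Y binds. The 250 bases before the start site of Ncapg, Cdca5 and Kif2c are shown from RefSeq (build GRCm38.p6), at chr5:45669675-45669924 (plus strand), chr19:6084847-6085096 (plus strand) and chr4:117178773-117179022 (minus strand). Capitals mark TTTGAA and CCAAT on either strand. The promoter of Ncapg has a CCAAT match, and those of Cdca5 and Kif2c have none in this window.
Ncapg: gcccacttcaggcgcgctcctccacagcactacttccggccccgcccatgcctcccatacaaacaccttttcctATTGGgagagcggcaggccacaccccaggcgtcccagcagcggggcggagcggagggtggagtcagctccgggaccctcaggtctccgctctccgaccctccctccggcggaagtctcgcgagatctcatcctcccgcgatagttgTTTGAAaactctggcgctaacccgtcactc
Cdca5: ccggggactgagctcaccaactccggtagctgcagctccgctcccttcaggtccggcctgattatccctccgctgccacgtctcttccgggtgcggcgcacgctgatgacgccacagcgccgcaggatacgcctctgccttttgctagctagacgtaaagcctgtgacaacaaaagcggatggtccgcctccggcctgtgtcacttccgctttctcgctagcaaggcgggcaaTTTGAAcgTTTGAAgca
Kif2c: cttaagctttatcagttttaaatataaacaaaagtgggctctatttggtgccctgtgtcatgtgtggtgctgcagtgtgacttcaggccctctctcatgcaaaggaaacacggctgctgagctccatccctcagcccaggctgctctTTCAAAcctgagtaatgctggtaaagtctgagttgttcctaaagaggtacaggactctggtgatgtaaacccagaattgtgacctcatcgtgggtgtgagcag
TTTGAA was found in 21 of 54 mitosis genes with a promoter entry (38.9%) and in 6 of 32 replication genes (18.8%), against 15.7% of all genes tested. CCAAT was found in 68.5% and 65.6% of the same lists and in 39.1% of all genes.

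Genes of the step from G1 to S included D cyclins that moved in opposite directions. Of 21 genes 10 were lower and 2 higher. Ccnd2 (cyclin D2) was 10.92 and 10.93 in the controls and 8.58 and 8.30 in the knockouts and fell by 2.48 ± 0.16 (adjusted p = 4.82e-05). Ccnd1 (cyclin D1) was 7.06 and 7.15 in the controls and 9.08 and 8.85 in the knockouts and rose by 1.86 ± 0.15 (adjusted p = 0.000112). Both knockout pools showed both shifts, and Ccnd3 was not called (0.13). Cdc25a, a phosphatase that activates cyclin-dependent kinases, fell by 1.48 ± 0.09, the kinase gene Cdk6 fell by 0.79 ± 0.07 and Rbl1, a relative of the retinoblastoma protein, by 0.77 ± 0.06, and the kinase inhibitor gene Cdkn1a (p21) rose by 0.50 ± 0.08.

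**Figure D4:**
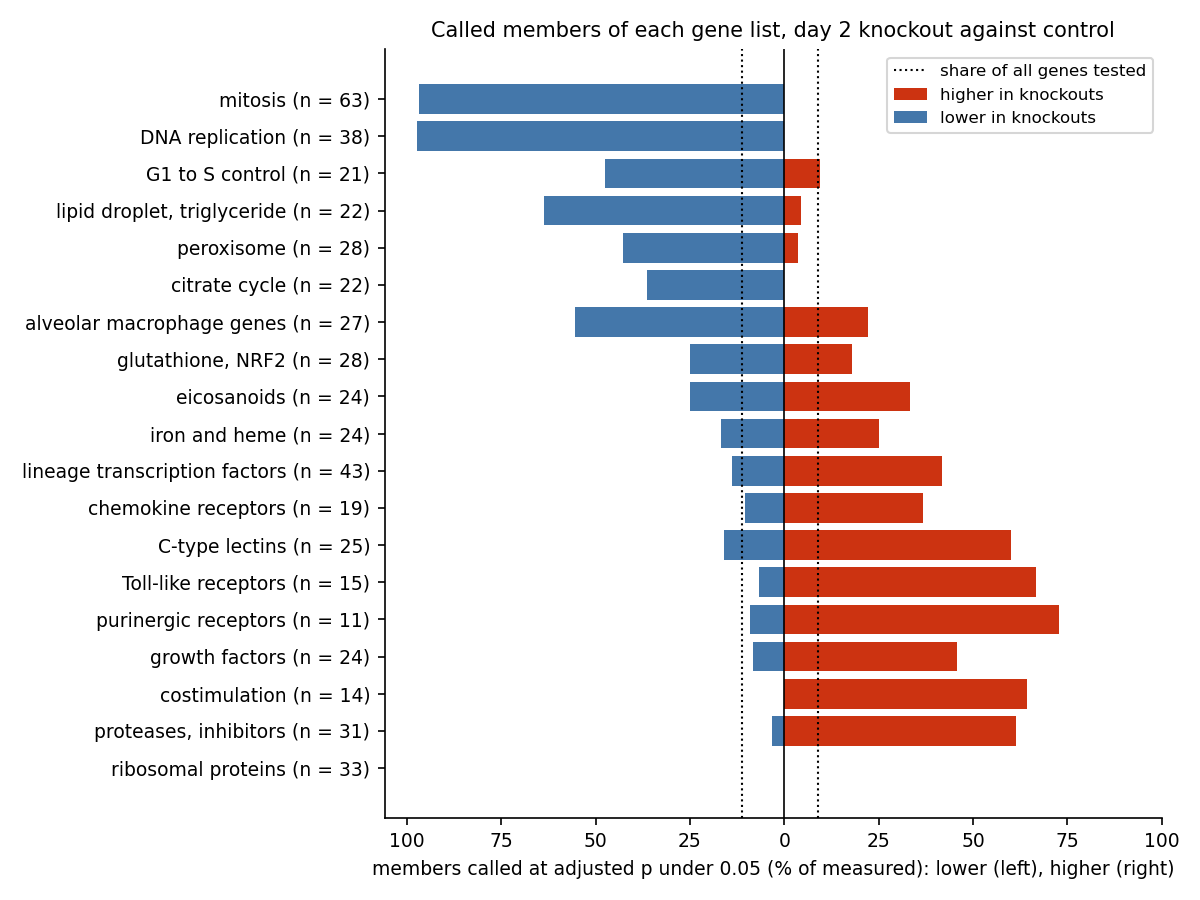
Members of each gene list called lower (blue, left) or higher (red, right) in the day 2 knockouts, as a percentage of the members measured (horizontal axis, n beside each name). Dotted lines mark the shares of all genes tested, 11.2% lower and 8.86% higher. Mitosis (61 of 63) and DNA replication (37 of 38) lie almost wholly to the left. The costimulation list, inhibitory members included, lies to the right (9 of 14), and no ribosomal protein gene was called.

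Receptors by which myeloid cells sense microbes and damage were mostly higher. Of 25 C-type lectin genes 15 were higher and 4 lower (2 without either control pool). Mgl2, a galactose-binding lectin, was 5.08 and 5.04 in the controls and 8.26 and 8.70 in the knockouts and rose by 3.42 ± 0.30 (adjusted p = 0.000171). Clec4a1 was 7.89 and 7.75 in the controls and 10.81 and 10.27 in the knockouts and rose by 2.72 ± 0.16 (adjusted p = 3.03e-05). Ly75 (DEC-205), an endocytic receptor, ran the other way at 10.54 and 10.48 in the controls and 7.97 and 8.05 in the knockouts and fell by 2.50 ± 0.13 (adjusted p = 1.59e-05). Clec4b1 fell by 0.98 ± 0.16. The groups did not overlap in these genes, and the knockout pools differed by less than 1 log2 unit in each. Cd209a, the largest rise of the list, and Clec9a also count among the dendritic cell markers given further on. Of 15 Toll-like receptor and cofactor genes 10 were higher and 1 lower. Besides Tlr9, Tlr1 rose by 2.51 ± 0.41, with 7.52 and 5.97 in the knockout pools, Ly86 (MD-1) by 1.61 ± 0.06 and Cd14, the lipopolysaccharide coreceptor, by 1.11 ± 0.08, while Tlr2, Tlr4 and Tlr7 were not called (0.20, 0.10 and 0.19). Of 11 genes on the purinergic receptor list, which also held Gpr34, 8 were higher (5 after a filter on dim genes). P2ry10 rose by 1.06 ± 0.13, P2rx1 by 0.72 ± 0.10, P2rx7 by 0.68 ± 0.08 and P2ry6 by 0.63 ± 0.08, and P2ry2 was lower (-1.44 ± 0.14). Of 9 Siglec genes, 2 were lower, the gate gene Siglecf and Siglec1, the sialoadhesin that binds sialylated particles (10.27 and 10.30 in the controls and 9.13 and 8.61 in the knockouts, -1.42 ± 0.18). The costimulation list of 14 genes also held the inhibitory Cd274, Pdcd1lg2, Vsir and Havcr2. Of the 14, 9 were higher and none lower, and Vsir (0.73) and Havcr2 (0.42) were among the 9. Tnfsf9 (4-1BB ligand) rose by 2.56 ± 0.23, Cd86 by 2.13 ± 0.10, Cd80 by 1.80 ± 0.08 and Tnfsf13b (BAFF) by 1.75 ± 0.19. Of 14 genes of the Ms4a family 5 were higher (3 without control pool 2) and none lower, among them Ms4a6b (2.84 ± 0.29), Ms4a6c (1.51 ± 0.15) and Ms4a4b (0.54 ± 0.09). Of 21 integrin genes 9 were higher and 1 lower, the latter number being 0 without control pool 1. Besides Itgam, a gate gene, Itgb7 rose by 2.09 ± 0.17, its partner Itga4 by 1.60 ± 0.09 and Itga9 by 1.03 ± 0.08.

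Genes of chemokine receptors and of their ligands are set beside the shares of all genes tested, 8.86% higher and 11.2% lower. Of 19 receptor genes 7 were higher and 2 lower, the latter number being 1 without control pool 2 or either knockout pool. Cxcr1, a receptor for ELR chemokines, was 8.76 and 8.63 in the controls and 5.61 and 6.14 in the knockouts and was among the largest falls. Ccr7, which directs cells to lymph nodes, was 6.72 and 6.96 in the controls and 8.13 and 7.94 in the knockouts and rose by 1.20 ± 0.10. Both knockout pools were on one side of both controls in these genes. Cx3cr1 and Ccr2, receptors of monocytes, rose by 3.46 ± 0.13 and 2.71 ± 0.10, and Ccrl2 by 0.94 ± 0.07. Of 12 CC and 11 CXC chemokine genes 6 each were higher and none lower. Cxcl16 was 7.44 and 6.59 in the controls and 10.46 and 9.67 in the knockouts and rose by 3.05 ± 0.34, Cxcl1 rose by 1.52 ± 0.19 and Ccl22 by 0.97 ± 0.15. The monocyte chemoattractants Ccl2 and Ccl7 rose by 3.80 ± 0.23 and 2.87 ± 0.37, and Pf4 and Ppbp, known from platelets, by 1.77 ± 0.26 and 1.69 ± 0.19. The number of higher CC chemokines was 3 without either control pool.

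Growth factors and proteases of tissue remodelling were higher in many cases. Of 24 growth factor genes 11 were higher and 2 lower, the latter number being 0 without control pool 2 or knockout pool 1 and 1 without either of the other day 2 pools. Csf1, the factor that sustains macrophages through the receptor CSF1R, was 5.63 and 5.74 in the controls and 8.37 and 8.32 in the knockouts and rose by 2.66 ± 0.08 (adjusted p = 2.29e-06). Hbegf, an EGF receptor ligand, rose by 2.46 ± 0.29, Pdgfa by 1.87 ± 0.14, Pdgfb by 1.62 ± 0.15, Hgf by 1.59 ± 0.08 and Vegfa by 1.54 ± 0.20, whereas Tgfb1 was not called (0.01). Of 31 protease and inhibitor genes 19 were higher and 1 lower (median 0.74), Mmp8, Mmp9 and Stfa1 among them being neutrophil markers too. Mmp12, macrophage elastase, was 7.66 and 7.44 in the controls and 11.25 and 11.21 in the knockouts and rose by 3.68 ± 0.13 (adjusted p = 3.41e-06). Adam8, a membrane protease, rose by 3.45 ± 0.21 and Plau (urokinase) by 2.10 ± 0.10, and the inhibitors Timp1 and Timp2 rose beside them by 2.36 ± 0.41 and 2.20 ± 0.14. The 1 lower gene was Serpinb6b (-2.23 ± 0.07).

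Eicosanoid genes changed in both directions. Of 24, 8 were higher and 6 lower, and the number higher was 5 without control pool 2, without knockout pool 1 or after a filter on dim genes. Ptgs2, the inducible cyclooxygenase, was 8.11 and 8.33 in the controls and 11.63 and 11.18 in the knockouts and rose by 3.18 ± 0.16. Hpgd, which inactivates prostaglandins, was 8.84 and 8.52 in the controls and 10.69 and 10.88 in the knockouts and rose by 2.10 ± 0.13. Ltc4s, the enzyme of cysteinyl leukotriene synthesis, was 9.95 and 9.98 in the controls and 8.43 and 8.87 in the knockouts and fell by 1.32 ± 0.18 (adjusted p = 0.00153). The leukotriene receptors Cysltr1 and Ltb4r1 rose by 1.31 ± 0.07 and 1.16 ± 0.14, and the prostaglandin E2 receptor gene Ptger2 fell by 1.03 ± 0.09. The phospholipase gene Pla2g15 fell by 0.74 ± 0.06 and the prostaglandin E synthase gene Ptges2 by 0.46 ± 0.07. Of 24 iron and heme genes 6 were higher and 4 lower, beside 8.86% and 11.2% of all genes tested. Slc11a1 (NRAMP1), which pumps iron out of phagosomes, was 7.86 and 7.22 in the controls and 10.98 and 10.32 in the knockouts and rose by 3.11 ± 0.39. Slc11a2 (DMT1), an iron importer, rose by 1.09 ± 0.12 and Hfe, a regulator of iron uptake, by 0.91 ± 0.08. The siderophore-binding Lcn2 rose by 2.64 ± 0.43, while Ncoa4, the receptor that delivers ferritin to autophagy, fell by 0.93 ± 0.09 and Blvra, biliverdin reductase, by 1.08 ± 0.13. Hmox1 and Fth1 were not called (-0.10 and -0.01). Of 28 glutathione and NRF2 target genes 5 were higher, where all genes tested gave 8.86% higher and 11.2% lower. Slc7a11, the cystine transporter, rose by 1.38 ± 0.10 and the secreted peroxidase gene Gpx3 by 0.97 ± 0.12. The glutathione conjugate pump gene Abcc1 rose by 0.84 ± 0.08 and the sulfiredoxin gene Srxn1 by 0.76 ± 0.10. In the same list 7 were lower, a number that was 1 without control pool 2, 3 without control pool 1 and 4 without knockout pool 1 or any one of the day 11 pools.

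Transcription factor genes of myeloid lineages were higher in 18 of 43 cases and lower in 6 (3 without control pool 1). Irf4, a factor of dendritic cells and alternatively activated macrophages, was 4.85 and 4.61 in the controls and 8.66 and 8.88 in the knockouts and rose by 4.04 ± 0.30. Ahr, the aryl hydrocarbon receptor, was 6.55 and 6.49 in the controls and 9.53 and 9.58 in the knockouts and rose by 3.04 ± 0.11. Runx3, a factor of lymphoid and dendritic cells, was 6.08 and 5.95 in the controls and 9.44 and 9.07 in the knockouts and rose by 3.24 ± 0.12. In all 3 the knockout pools differed by less than their distance from the controls. Maf, a factor of macrophages, rose by 2.39 ± 0.26 and Etv1 by 2.15 ± 0.15. The lower ones that kept the call in every alternative were Bhlhe41, a regulator of alveolar macrophage identity (-0.92 ± 0.09), Id1 (-0.74 ± 0.08) and Klf10 (-0.71 ± 0.08). Of 23 nuclear receptor genes 5 were higher and 4 lower, the latter number being 1 without either control pool and 2 without knockout pool 1 or either day 11 control pool. Among all genes tested the shares were 8.86% higher and 11.2% lower. The orphan receptors Nr4a3 and Nr4a2 rose by 1.92 ± 0.07 and 1.68 ± 0.07 and the retinoic acid receptor gene Rarg by 1.11 ± 0.09. Nr1h3 (LXRα), an oxysterol receptor, was 9.58 and 9.64 in the controls and 8.23 and 7.74 in the knockouts, and Rxra and Ppara were not called (-0.17 and 0.06). Of the 23 early response genes induced by tissue dissociation, Nr4a1 among them, 14 were higher and none lower (median 0.36), Socs3 by 1.91 ± 0.20, Dusp2 by 1.68 ± 0.08, Egr3 by 1.38 ± 0.14 and Ier3 by 0.88 ± 0.11, and the part of dissociation in the rises was not tested. In the family of cell death regulators 5 of 13 genes were higher, the death-promoting Bcl2l11 (BIM) by 1.21 ± 0.12, Pmaip1 (NOXA) by 0.82 ± 0.10 and Bid by 0.75 ± 0.13 and the protective Bcl2 by 1.15 ± 0.20, and Bok was lower (-1.30 ± 0.12).

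Markers of other cells moved unevenly, and the part of a changed mixture in the gene differences was not tested. Monocytes, dendritic cells and interstitial macrophages could lie in such a gate, whereas a sort for CD45, F4/80 and high CD11c should remove the cells of the other lists, from neutrophils to erythroid cells. Of 14 monocyte markers 10 were higher and 1, Chil3, lower, and Gpr141 rose by 2.97 ± 0.33. Of 17 dendritic cell markers 8 were higher and none lower, with Clec9a, a marker of cross-presenting cells, at 4.55 and 4.73 in the controls and 7.24 and 7.02 in the knockouts, while Xcr1, Zbtb46 and Siglech, which define subsets, were not called (0.25, 0.24 and -0.06). Dpp4 rose by 1.23 ± 0.08. Of 15 interstitial macrophage markers 9 were higher and 1 lower, with Stab1 at 5.24 and 5.38 in the controls and 8.45 and 7.23 in the knockouts, while Lyve1, Folr2 and Cd163 were not called (0.01, -0.08 and 0.06). Of 15 neutrophil markers 10 were higher and 1 lower, with Retnlg at 4.07 and 4.42 in the controls and 6.70 and 6.79 in the knockouts. Its granule genes were split, as Mpo, Elane and Prtn3 were not called (-0.11, 0.05 and -0.21) and Lcn2, Mmp8 and Mmp9 rose (2.64, 4.40 and 1.86). None of 13 B cell and none of 18 fibroblast and muscle markers was called by limma, and at an unadjusted p under 0.05 the numbers were 0 and 3. Of all genes tested 20.1% were called in either direction, and of the next lists only endothelium exceeded that share. The numbers called were 3 of 17 for T and NK cells (1 without control pool 1, knockout pool 2 or any one of the day 11 pools), 1 of 17 for eosinophils, mast cells and basophils, 3 of 16 for epithelium, 6 of 16 for endothelium and 1 of 6 for erythroid cells. Of these, the T cell gene Cd3e rose by 0.58 ± 0.08, the epithelial genes Hopx and Scgb1a1 differed by 0.68 ± 0.09 and -1.05 ± 0.18, and the endothelial genes Pecam1, Eng, Cdh5 and Calcrl by 1.68 ± 0.10, 1.56 ± 0.14, 0.50 ± 0.07 and -0.68 ± 0.09. Median signals of the 7 lists from B cells to erythroid cells ran from 3.86 to 6.65 in the controls and from 3.93 to 6.81 in the knockouts. Single epithelial genes stood above these medians on every array. Scgb1a1 was 8.86 and 9.27 in the controls and 7.98 and 8.05 in the knockouts. The surfactant protein C gene was 8.74 and 8.54 in the controls and 8.57 and 9.27 in the knockouts, and the source of this signal was not tested. The median signal of the monocyte markers was 7.90 and 7.87 in the controls and 9.35 and 9.08 in the knockouts, and that of the neutrophil markers was 4.90 and 4.76 in the controls and 6.34 and 6.29 in the knockouts. That of the dendritic cell markers was 4.85 and 4.74 against 5.31 and 5.36, and that of the interstitial macrophage markers was 5.70 and 5.71 against 8.45 and 7.23.

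A few day 2 differences were set against the same comparison at day 11 by the interaction of genotype and age, which was called for 615 genes (3.27% of those tested), 452 of them also called at day 2. The number was 197 and 215 without day 2 control pools 1 and 2, 254 and 248 without day 11 control pools 1 and 2, 405 without day 11 knockout pool 2, 942 without day 2 knockout pool 2 and 222 with Xist signal as a covariate. The interactions of Ifitm6, Plac8, Car6, Ecm1, Fabp1, Ccl17 and Elovl7 given here were called in all 14 alternative fits that test it. Of the 160 genes at least 4-fold higher at day 2, 72 had a called interaction and 67 of these were smaller at day 11. Of the 33 at least 4-fold lower, 6 had one and 5 were smaller. These genes, like the 15 largest falls and rises, were chosen by their day 2 difference. The interaction subtracts that difference, so the choice favours a smaller one at day 11. Among the 15 largest falls all were called at day 11 and 3 had a called interaction, and among the 15 largest rises the numbers were 11 and 11. Ifitm6, an interferon-inducible membrane protein gene, was 3.90 and 4.02 in the controls and 7.62 and 7.53 in the knockouts at day 2, and its difference of 3.62 became -0.0025 at day 11 (interaction -3.62 ± 0.10, adjusted p = 1.52e-05). Plac8, a monocyte gene, went from 3.24 to -0.03 (interaction adjusted p = 0.00537). Differences that widened with age were those of Car6, a secreted carbonic anhydrase, from 1.60 to 4.29 (interaction 2.69 ± 0.18, adjusted p = 0.000536), Ecm1, an extracellular matrix protein gene, from 2.01 to 4.49 and Fabp1, a fatty acid carrier, from -1.05 to -4.79. Other large interactions were those of Ccl17 (from 1.16 to -2.19), Ifitm3 (from 3.78 to 0.46), H2-Ab1 (from 4.01 to 0.71), Elovl7, a fatty acid elongase (from 2.08 to 3.96), and Fam20c, a secretory pathway kinase (from 1.52 to 3.22). The day 2 call of Ccl17 was lost without either control pool or either knockout pool (adjusted p 0.0533 to 0.104) and in 1 other alternative (adjusted p = 0.0733). The interactions of Ifitm3 (adjusted p = 0.032) and H2-Ab1 (0.0139) were not called without either day 2 control pool, without day 11 control pool 2 and in 2 other alternatives, nor that of Ifitm3 without day 11 control pool 1 or day 11 knockout pool 2, with adjusted p up to 0.154 and 0.0879. The interaction of Fam20c (0.034) was called in 4 of the 14 and not without any one of the day 2 pools, either day 11 knockout pool or day 11 control pool 1 (adjusted p up to 0.136). Day 2 and day 11 cells came from different gates, so age and gate cannot be told apart here.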

How the data were processed

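RNA of sorted lung cells from 4 groups (control and knockout, day 2 and day 11), each of 2 pools of 2 mice, had been hybridised to Affymetrix expression arrays. The values are log2 signals that the authors deposited, and the submitters' processing notes name RMA and R 2.15.2. The sources used here do not give the level of probe summary. RMA gives every array the same distribution, so a shift of all genes in one direction would not show.

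Of 28874 probe sets, 21159 had 1 gene symbol in the platform table, 1881 had several and 5834 had none. By gene ID, 21129 of those with 1 symbol matched the RefSeq gene table. For 1368 genes with several probe sets, the one brightest on average across the 8 arrays was used, which left 18782 genes. limma 3.58.1 in R 4.3.3 fitted 1 mean per group to all 8 arrays, with Benjamini-Hochberg adjustment over the 18782 genes and a threshold of 0.05. The fit was tested on simulated data. The number of arrays limits the precision. The p-values measure the spread between these pools. SEs and p-values rest on 1 spread per gene, estimated over the 4 groups together and moderated by limma, and not on the day 2 arrays alone. At day 2 the knockout pools differed by at least 2-fold in 142 genes and the control pools in 19, so the shared spread may not suit both. The labels number the pools 1 and 2 in each group. Over the pairs of groups, the deviations of same-numbered pools correlated between -0.075 and 0.25, and between the 2 day 2 groups by 0.25. The main fit did not take the numbers to pair samples, and a replicate block was among the alternatives.

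The genes compared, the 51 gene lists (101 of their 1051 entries matched no gene tested) and the tests were chosen with earlier results of these data known. Named by rule were the 15 largest rises and falls called in every alternative fit, the 4 largest of each direction in each list under the same condition, the 4 genes of each interferon list with the largest gap between the knockout pools, Pparg, the genes of the gate and of the sex chromosomes, and, of the 8 largest interactions with age in each direction, those of genes also called at day 2. Gene models without a proper symbol, small RNAs and the genes of olfactory, vomeronasal and antigen receptors were left out of the rule. Other named genes were chosen after their values were seen. Lists are given as counts and medians, with no test of a list. Alternatives were 15 fits: day 2 arrays alone, a trend and robust prior, a filter on dim genes, the mean of a gene's probe sets, arrays centred on their median, a replicate block, Xist signal as a covariate, and each array left out in turn. Promoters came from a RefSeq table (GRCm38.p6) that held 14724 of the genes. Python 3.11.15 and matplotlib 3.10.9 drew the figures.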

Additional observations from a re-analysis of the deposited data

Results flagged for a closer look

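No group holds more than 2 arrays, and whether a pool stands apart from its group was not tested. What drew a closer look are 62 named genes whose genotype difference at day 11 differed from that at day 2 by the interaction term of the limma fit (adjusted p under 0.05). Values in parentheses here are the day 11 difference minus the day 2 difference, in log2 units. Moved up or down, said of a gene, refers to this difference, to which control and knockout signals both contribute. Many named genes were chosen by a large day 2 difference, and that choice favours a smaller one at day 11. None of the 62 changed sign in any of 14 alternative fits, and 32 kept the call in all that tested them.

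Among those 32, 24 genes higher in the day 2 knockouts had moved down by day 11: Ifitm6 (-3.62), Cd209a (-3.59), Clec4a1 (-3.37), Ccl17 (-3.35), Plac8 (-3.27), C1qa (-3.03), Plbd1 (-2.99), Runx3 (-2.91), C1qc (-2.84), Il1r2 (-2.79), Retnlg (-2.69), C1qb (-2.19), Cx3cr1 (-2.09), Ccl22 (-1.84), Pecam1 (-1.82), Mmp9 (-1.77), P2ry10 (-1.57), Krt80 (-1.53), Dpp4 (-1.39), Nr4a3 (-1.20), Ccr7 (-1.18), Cd80 (-1.11), Ly86 (-0.94) and Nr4a2 (-0.94). The difference changed sign from 2.72 to -0.65 for Clec4a1, from 1.16 to -2.19 for Ccl17, from 1.06 to -0.51 for P2ry10, from 0.97 to -0.88 for Ccl22 and from 0.95 to -0.58 for Krt80. Bhlhe41 (1.11) and Serpinb6b (1.15), lower at day 2, moved up. The differences of Itgam (1.44), Elovl7 (1.88), Ecm1 (2.47) and Car6 (2.69), positive at day 2, moved further up. That of Fabp1 (-3.75), negative at day 2, moved further down, and that of Epcam (-1.07), not called at day 2 (0.09), stood at -0.98 at day 11. Fabp1 signal in the controls went from 5.07 and 5.56 at day 2 to 9.89 and 9.54 at day 11. In the knockouts it was 4.26 and 4.27, then 4.94 and 4.90. Elovl7 signal in the knockouts went from 7.7 and 7.9 to 8.8 and 9.1, and fell in the controls.

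The other 30 lost the call in at least 1 alternative. Of these, Ifitm3 (-3.32), H2-Ab1 (-3.29), Mgl2 (-3.02), Ms4a6b (-2.66), Stfa1 (-2.50), Rasgrp1 (-2.29), Irf4 (-2.11), Ccl2 (-1.88), Itgb7 (-1.63), Mmp12 (-1.32), Ppbp (-1.26), Mmp8 (-1.17), Pdgfb (-0.9995), Eng (-0.9955), Ahr (-0.88), Itga9 (-0.85), Pmaip1 (-0.84), Dusp2 (-0.76), Cysltr1 (-0.72) and Cdh5 (-0.58) were higher at day 2 and moved down. Pla2g15 (0.50), Serpinb1a (1.17), Cxcr1 (1.28) and Phlda3 (1.89) were lower at day 2 and moved up, Hopx (0.79), Gpx3 (1.25) and Fam20c (1.71) were higher and moved further up, and Clec4b1 (-1.10), Krt79 (-1.08) and Hsd17b4 (-0.51) were lower and moved further down. The highest adjusted p of these 30 over the alternatives ran from 0.0506 (Gpx3) to 0.187 (Ppbp). The days differ in gate as well as in age, and the part of the gate was not tested.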

How the results depend on the processing

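With 2 pools per group, the calls depended most on the control pools. With 1 array left out, genes called at day 2 came to between 2223 and 3605, higher ones to between 1120 and 1623, lower ones to between 1103 and 1982, and those of at least 2-fold to between 639 and 827. The counts for all and for lower genes moved by over 1.5 times without control pool 1 (2428 and 1281) and without control pool 2 (2223 and 1103). The other alternatives called between 2864 (Xist signal as a covariate) and 4118 (arrays centred on their median). With the replicate number as a block, 3692 genes were called, 1660 higher and 2032 lower, 715 of them at least 2-fold, and the interaction with age was called for 558. The interaction count was the least stable, between 197 and 942 with 1 array left out and 222 with Xist signal as a covariate. It moved by over 1.5 times without either control pool of either age, without day 2 knockout pool 2 and without day 11 knockout pool 2.

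Of 203 called genes named in the report, 190 kept the call in every alternative fit, and none of the 275 named genes changed sign in a way that touched a call. Medians of 4 lists changed sign with 1 array left out. They ran from -0.0182 (without knockout pool 1) to 1.09 for interferon-induced chemokines, from -0.135 (likewise) to 0.475 for class I presentation, from -2.23 to 0.524 (likewise) for sex-linked genes and from -0.0075 (without control pool 2) to 0.119 for B cell markers. The median gap between the knockout pools over the interferon lists was between 0.748 and 0.891 under 3 alternatives, against 0.806. Signal over background could not be judged without detection calls. A filter on dim genes kept 10687 genes and called 3833.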
